A study of Mus musculus with 4 samples.

Results

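Smooth muscle cells and myofibroblasts of the mouse lung were singled out from 4 droplet-based single-cell RNA-Seq (scRNA-Seq) libraries by the transcripts that each barcode carried. A barcode was a member when at least 3 of 7 marker genes (*Myh11*, *Cnn1*, *Des*, *Actg2*, *Hhip*, *Aspn* and *Lgr6*) were detected and fewer than 3 of 6 pericyte genes were. It also had to lack the leukocyte gene *Ptprc* and the endothelial gene *Cdh5*. In all, 231 of 11846 barcodes that passed quality limits (1.95%) were members.

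Each library pooled thawed cell suspensions from the left lung lobes of 3 male C57BL/6 mice. Young animals were 2 to 3 months of age and aged animals 22 months, and all were wild type. A restricted diet is given for the mice that were aged, and the sources do not make clear whether the young mice had it, so diet and age cannot be told apart. At each age there was a naive, nonventilated group and a group that was mechanically ventilated for 3 hours. Ventilation came with ketamine and medetomidine anesthesia, buprenorphine and pure oxygen, which the naive mice did not receive, so their effects and that of ventilation cannot be told apart. There was 1 library in each group and no spread between mice could be measured, so no test was run. All intervals below are 95% and cover counting error only.

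Smooth muscle cells wrap the airways and vessels and set their width by sliding actin along myosin, a motion driven by calcium and by phosphorylation of the myosin light chain. Myofibroblasts share part of this contractile machinery but sit in alveolar ducts and septa, where they lay down elastin and collagen, and in the mouse lung they are known for expression of the hedgehog inhibitor *Hhip*. Both cell types feel stretch, and both answer to hedgehog, TGF-β, endothelin and nitric oxide.

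The members numbered 77 of 2942 retained barcodes in the young nonventilated library (2.62%, Clopper-Pearson interval 2.07% to 3.26%). They numbered 59 of 3327 after ventilation of young mice (1.77%, 1.35% to 2.28%). In the aged nonventilated library there were 58 of 3025 (1.92%, 1.46% to 2.47%), and in the aged ventilated library 37 of 2552 (1.45%, 1.02% to 1.99%). The share was lower in the ventilated library at both ages, and the intervals overlapped at both. Of the 7 marker genes, 3 (*Hhip*, *Aspn* and *Lgr6*) were themselves at least 2-fold lower in ventilated members at both ages. A barcode may then miss the rule without any loss of cells, and the part of this in the lower shares was not tested. Without cells holding *Epcam*, *Pecam1* or *Sftpc*, the shares were 1.6%, 1.29%, 1.12% and 0.823% in the same order. Members held a median of 12881, 10876, 12661 and 11990 unique molecular identifiers (UMIs, each marking a captured transcript) in these 4 libraries in the same order. Their UMIs summed to 1016664, 670969, 799652 and 580251, which sets the depth behind every value below. Pairs of libraries shared 0 to 7 barcode sequences, and no member's barcode was found among the members of another library.

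The label was checked against genes that the rule did not use, and most members but not all fitted it. *Acta2*, the smooth muscle actin, was detected in 205 of the 231 members, and *Tagln*, an actin-binding protein of the same cells, in 207. After cells were thinned to 3000 UMIs each, which kept 76, 59, 56 and 34 members, *Tagln* was detected in 75% to 91.2% of members per library (84.5% to 94.6% before thinning), against 0.959% to 1.33% of leukocytes in the same libraries. Median depths were similar, at 9595 to 12623 UMIs for the leukocytes. These leukocytes held no UMI of any marker gene of the rule, so their low share of *Tagln* cannot check the label. The share of pericytes and alveolar fibroblasts with *Tagln*, a closer comparison, is not given here. *Chrm2* and *Chrm3*, the muscarinic receptors of airway muscle, were low, with 129 and 25 UMIs in the young nonventilated members. A list of 6 vascular muscle genes summed to 484.9, 381.5, 586.5 and 306.8 CPM in the 4 libraries, with *Gucy1a1* or *Mcam* at its head, and *Rgs5* and *Pln* of this list had 22 and 4 UMIs in the young nonventilated members. The members were therefore not divided into airway and vascular muscle.

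The rule has thresholds, and it left cells near them on both sides. Exactly 3 markers were detected in 58 members, and 187 barcodes that met the other limits were left out with 2. Another 104 barcodes had the markers but were left out for 3 or more pericyte genes, among them *Notch3*, which vascular smooth muscle also expresses. A further 22 were left out for *Ptprc* or *Cdh5*.

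*Hhip*, *Aspn* and *Lgr6*, which marked the myofibroblast side of the rule, split the members into 121 cells with at least 2 of the 3 detected, 71 with 1 and 39 with none. Cells with at least 2 of them were 48 of 77 (62.3%, 50.6% to 73.1%) in the young nonventilated library and 27 of 59 (45.8%, 32.7% to 59.2%) after ventilation. They were 33 of 58 (56.9%, 43.2% to 69.8%) in the aged nonventilated library and 13 of 37 (35.1%, 20.2% to 52.5%) in the aged ventilated library. The intervals overlapped at both ages, and since the rule used these genes, the split is a description. The shares depended on depth, and with the rule read after thinning to 3000 UMIs they were 31.9%, 14.6%, 24.5% and 21.9%. In counts per 1000000 UMIs (CPM), *Enpp2*, which makes lysophosphatidic acid, stood at 1268, 651.1, 888.7 and 652.2 in cells with at least 2 of the genes in the 4 libraries in the same order, and at 225.3, 162.8, 284.7 and 132.7 in cells with none. The cadherin *Cdh4* stood at 809.2, 106.9, 333.5 and 97.5 CPM in the former and at 59.3, 81.4, 153.3 and 48.3 CPM in the latter, where it rested on 4 to 14 UMIs. Both belong to a list of 8 myofibroblast genes that the rule did not use. Another gene of that list, *Pdgfra*, was detected in only 10.4%, 8.48%, 15.5% and 13.5% of all members in the 4 libraries. The cells with at least 2 of the 3 genes were of more than one kind. Of the 121, 86 held a UMI of *Hhip* and 35 held *Aspn* and *Lgr6* without it. In the 86, the median of *Acta2* was 3.28, 1.77, 1.56 and 1.36 UMIs per 10000 in the 4 libraries, and in the 35 it was 147.5, 139.3, 171.1 and 101.1, with no overlap between the 2 sets of cells in any library but the young nonventilated one. The 35 cells without *Hhip* held most of the *Acta2* of the group, with 3658 of 4066 UMIs in the young nonventilated library. A cell with at least 2 of the 3 genes is therefore not called a myofibroblast here.

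**Figure D1:**
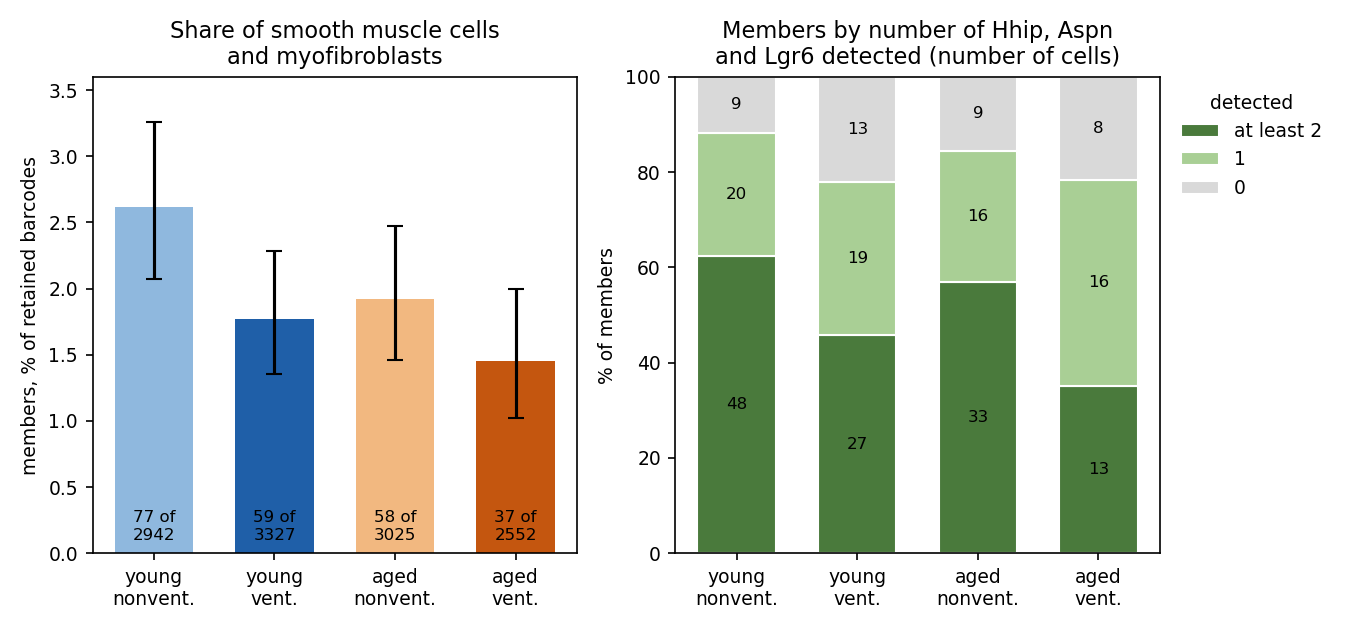
Left, members as a percentage of retained barcodes in each library, with Clopper-Pearson 95% intervals for counting error and the numbers of cells in the bars. Right, members of each library by how many of Hhip, Aspn and Lgr6 were detected, as a percentage of members, with cell numbers in the bars. Cells with at least 2 of these genes made up 62.3% and 56.9% of members in the nonventilated young and aged libraries and 45.8% and 35.1% in the ventilated ones, at each cell's full depth.

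Transcripts of other cell types were looked for in the members as whole lists. Of 7 alveolar fibroblast genes, 1 was at 0 in the young ventilated members and none in the other libraries, and their summed level was 1347 CPM in young nonventilated, 524.6 CPM in young ventilated, 3020 CPM in aged nonventilated and 1889 CPM in aged ventilated members. The most abundant of them was *Inmt* in the aged nonventilated members and *Limch1* in the other 3 libraries. Members with 3 or more of 6 genes of this kind numbered 16, 1, 12 and 7, and they carried 27.4%, 1.76%, 30.6% and 34.9% of the members' UMIs. In these 36 cells the median of *Acta2* was 2.94 UMIs per 10000, against 55.97 in the other 195 members, and that of *Inmt* was 14.8 against 0. The libraries differed, as the 16 young nonventilated cells had a median *Acta2* of 77.6, while the 12 aged nonventilated and 7 aged ventilated cells had 0.69 and 1.53. The 16 were mixed, with *Acta2* from 0 to 331.99 per 10000. By *Acta2*, the smooth muscle part of the label did not hold for most of these aged cells, and *Inmt* is one of the 6 genes that set them apart. Low *Acta2* alone does not mark them, as the 86 cells with *Hhip* described above had a median of 1.75. Beside them, adventitial fibroblast genes, led by *Dcn*, summed to 974.8, 882.3, 1103 and 229.2 CPM, the lowest value being that of the aged ventilated members. The pericyte list, whose genes the rule limited, summed to 170.6 to 263.6 CPM with *Postn* or *Notch3* at its head and with *Higd1b* and *Vtn* at 0 in all 4 libraries. Endothelial genes, led by *Ednrb*, which muscle also expresses, summed to 185.9, 76.0, 168.8 and 70.7 CPM. Leukocyte genes summed to 46.2 to 81.0 CPM, alveolar type II genes to 38.8 to 70.0 CPM and airway epithelial genes, nearly all *Scgb1a1*, to 66.9 to 160.1 CPM. The defining cardiac genes *Myh6*, *Myl7* and *Tnni3* had at most 1 UMI in any library, although *Actc1*, the cardiac α-actin, was abundant.

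For each comparison, the UMIs of all members of a library were summed and scaled to CPM. A gene was said to rise or fall when its CPM differed by at least 2-fold and the interval of the ratio left out 1. This was asked of genes that averaged 50 CPM or more across both libraries and had at least 20 UMIs in 1 of them. Where 4 values are given without labels, they stand for the young naive, young ventilated, aged naive and aged ventilated libraries, in that order. Among young members, 329 of 3551 genes rose with ventilation (9.26%) and 291 fell (8.19%). Among aged members, 157 of 3545 genes rose (4.43%) and 246 fell (6.94%). The counts of listed genes below are to be read beside these shares of all genes. Without the 36 members that held 3 or more alveolar fibroblast genes, 326 rose and 274 fell in young and 174 rose and 245 fell in aged members. The counts moved more with other choices of cells. In cells with at least 2 of *Hhip*, *Aspn* and *Lgr6*, 544 rose and 477 fell in the young and 260 rose in the aged, and in young cells with none of them 108 fell. The median size of the log2 ratio over all these genes was 0.46 in young and 0.353 in aged members, and the median log2 ratio itself was 0.0768 and 0.0179. Of the genes that rose, 64 did so at both ages (19.5% of the young and 40.8% of the aged genes). Of those that fell, 107 did so at both (36.8% and 43.5%).

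**Figure D2:**
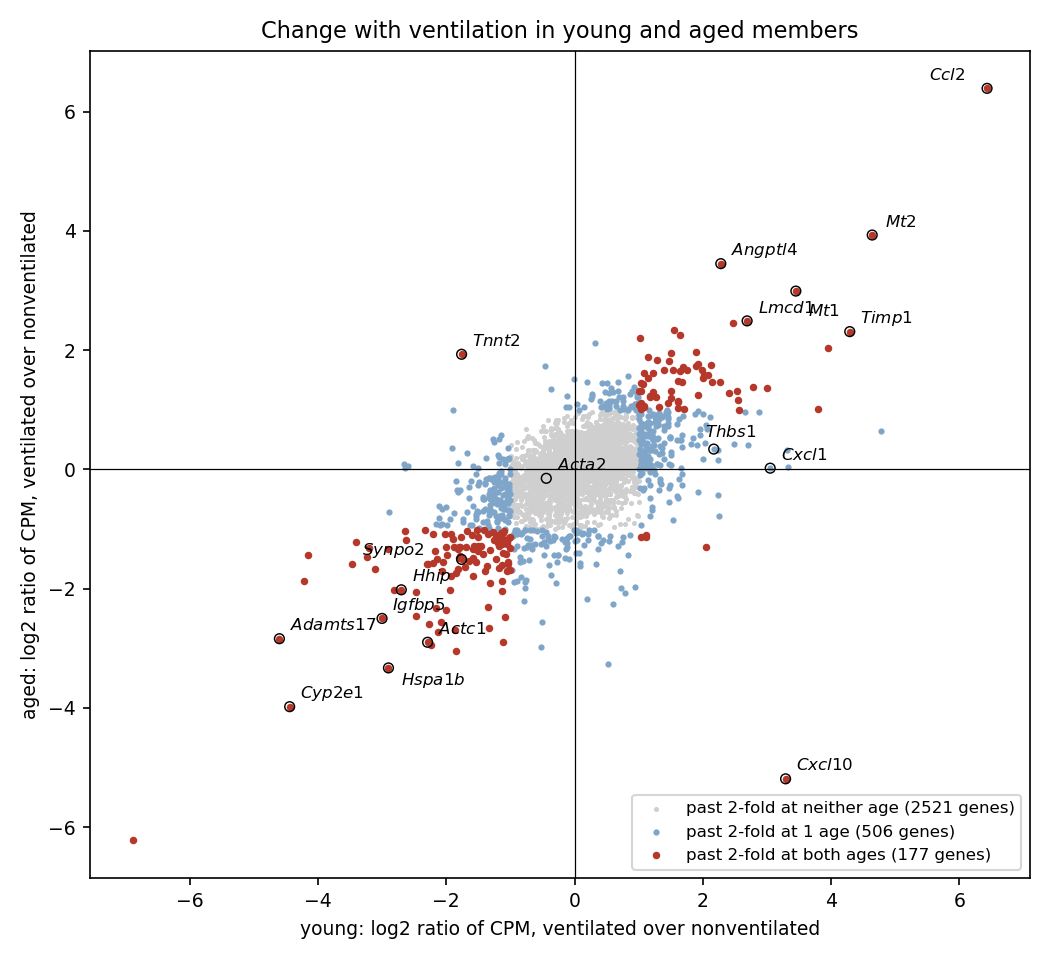
Each point is a gene measured at both ages. The x axis gives the log2 ratio of CPM, ventilated over nonventilated, in young members and the y axis gives it in aged members. Named genes are circled. Mt1, Mt2, Ccl2 and Timp1 lie high at both ages, Hhip, Igfbp5 and Actc1 lie low at both, and Cxcl10 lies high in young (3.29) and low in aged members (-5.19).

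The metallothioneins *Mt1* and *Mt2*, small proteins that bind zinc and copper and scavenge radicals, were among the genes that rose most at both ages. *Mt1* stood at 1265 CPM in young nonventilated, 13850 CPM in young ventilated, 2702 CPM in aged nonventilated and 21470 CPM in aged ventilated members. Both ventilated libraries were far above both nonventilated ones. The rise was 10.9-fold in young (10.3 to 11.6) and 7.94-fold in aged members (7.59 to 8.32). *Mt2* went from 159.3 to 3996 CPM in young members, a 25.1-fold rise (21.4 to 29.6), and from 353.9 to 5413 CPM in aged members, a 15.3-fold rise (13.5 to 17.3). The rise was spread over the cells, as the median member held 5.22 UMIs of *Mt1* per 10000 in the young nonventilated library and 114.7 in the young ventilated one. In the aged libraries the medians were 7.49 and 120.2. After thinning, *Mt2* was detected in 25% and 91.5% of young and 37.5% and 79.4% of aged members without and with ventilation (41.6%, 93.2%, 55.2% and 89.2% before thinning). In leukocytes of the same libraries, it was detected in 9.44%, 31.3%, 9.57% and 20.2%.

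Both genes lie side by side on chromosome 8, *Mt2* at chr8:94172664-94173568 and *Mt1* at chr8:94179082-94180327 (GRCm38, plus strand). Metallothionein genes are known to be switched on through metal response elements, so the promoter windows of this pair are shown. They run from 250 bases before to 50 after the RefSeq start (GRCm38.p6, plus strand), chr8:94178839-94179138 for *Mt1* and chr8:94172368-94172667 for *Mt2*. Capitals mark the core letters of the element, TGCACNC or TGCGCNC, read on either strand, so that a match on the minus strand appears as its reverse complement.

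Mt1 promoter: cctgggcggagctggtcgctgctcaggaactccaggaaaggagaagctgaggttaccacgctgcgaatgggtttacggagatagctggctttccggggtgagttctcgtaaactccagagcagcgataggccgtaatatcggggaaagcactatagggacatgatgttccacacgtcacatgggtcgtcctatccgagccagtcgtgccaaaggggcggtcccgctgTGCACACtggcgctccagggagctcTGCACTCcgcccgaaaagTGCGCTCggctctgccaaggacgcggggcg
Mt2 promoter: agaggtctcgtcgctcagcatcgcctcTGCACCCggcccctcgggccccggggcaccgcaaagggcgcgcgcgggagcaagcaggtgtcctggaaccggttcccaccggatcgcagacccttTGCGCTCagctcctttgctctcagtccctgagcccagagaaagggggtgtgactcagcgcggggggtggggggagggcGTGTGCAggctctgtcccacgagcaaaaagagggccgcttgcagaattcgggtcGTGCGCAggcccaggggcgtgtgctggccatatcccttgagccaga

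The *Mt1* window held 3 matches, all on the plus strand, and the *Mt2* window held 4, with 2 on each strand. Of 32851 promoter windows of this length, 25.7% held at least 1 match, 1.97% at least 3 and 0.517% at least 4. A match is a run of letters and is no evidence of binding.

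Of 9 measured genes of the oxidative stress and metal response, 6 rose and none fell in young members, and 3 rose and none fell in aged members. The list's median log2 ratio was 1.21 and 0.681, and the aged value was 0.393 in cells with at least 4 of the 7 markers and 1.95 in cells with none of *Hhip*, *Aspn* and *Lgr6*. *Gclc*, the catalytic subunit of the enzyme that limits glutathione synthesis, was at 72.8 and 298.1 CPM in young members without and with ventilation and at 61.3 and 186.1 CPM in aged members. It rose at both ages, 4.09-fold (3.12 to 5.42) and 3.04-fold (2.15 to 4.35), with 43 of its 108 UMIs in the aged ventilated library in 1 cell. *Slc39a14*, a zinc importer, rose in young members from 42.3 to 165.4 CPM, whereas it was at 67.5 and 108.6 CPM in aged members, short of the limit.

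Genes of the extracellular matrix moved in both directions. Of 36 measured in young members, 7 rose and 11 fell, and of 32 in aged members, 4 rose and 5 fell. The median log2 ratio was -0.355 and -0.191, and in young cells with none of *Hhip*, *Aspn* and *Lgr6* it was 0.512. *Thbs1*, a matricellular protein that activates latent TGF-β, stood at 1466 and 6595 CPM in young members without and with ventilation and at 2021 and 2554 CPM in aged members. The young ventilated members were well above the other 3 libraries. The ratio with ventilation was 4.50 (4.24 to 4.78) in young and 1.26 (1.18 to 1.36) in aged members. In aged cells with none of *Hhip*, *Aspn* and *Lgr6*, the log2 ratio of *Thbs1* was -1.22. *Timp1*, an inhibitor of matrix metalloproteinases, went from 18.7 to 383.0 CPM in young members, a 20.5-fold rise (12.9 to 34.6). It went from 32.5 to 165.4 CPM in aged members, a 5.09-fold rise (3.27 to 8.18), with 52 of 96 UMIs in 1 ventilated cell. Tenascin C, *Tnc*, a matrix protein of remodeling tissue, was at 84.6 and 374.1 CPM in young members without and with ventilation, a 4.42-fold rise (3.45 to 5.72). In aged members it was at 58.8 and 25.8 CPM, from 47 and 15 UMIs in 6 and 5 cells, and was under the CPM limit. The basement membrane collagen *Col4a1* rose at both ages, from 230.2 to 465.0 CPM and from 251.4 to 532.5 CPM.

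Genes that fell included some of the elastic fiber and the fibrillar collagens, although *Lox*, which cross-links both, rose in aged members from 53.8 to 134.4 CPM, 39 of the 78 UMIs after ventilation being in 1 cell. *Eln*, which encodes elastin, was at 673.8 and 269.8 CPM in young members and fell 2.50-fold (2.12 to 2.96). In aged members, *Eln* stood at 651.5 and 403.3 CPM, a ratio short of 2-fold. *Mfap5*, a microfibril protein, fell in young members from 176.1 to 22.4 CPM, and was at 186.3 and 112.0 CPM in aged members. *Lum*, a proteoglycan that spaces collagen fibrils, fell at both ages, from 379.7 to 79.0 CPM and from 198.8 to 24.1 CPM. *Col3a1* was at 612.8 and 311.5 CPM in young members, short of the limit, and fell in aged members from 421.4 to 129.3 CPM. The alveolar fibroblast transcripts given above were lower in the ventilated members too. Adventitial fibroblast genes were lower in aged ventilated members, with a list sum of 1103 and 229.2 CPM without and with ventilation, and all 3 measured (*Dcn*, *Col14a1* and *Clec3b*) fell there. The part of the adventitial genes in these falls was not tested. Without members that held 3 or more alveolar fibroblast genes, the log2 ratio of *Eln* was -1.33 in young and -1.09 in aged members, against -1.31 and -0.69 with them.

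Of 12 measured growth factor and receptor genes, 3 rose and 2 fell in young members, and of 10 in aged members, 2 rose and 2 fell. Among all genes, 9.26% rose and 8.19% fell in young members, and 4.43% and 6.94% did so in aged members. *Ereg* encodes epiregulin, a ligand of the epidermal growth factor receptor, and stood at 4.92, 324.9, 7.5 and 5.17 CPM. The young ventilated library was the only one of the 4 in which more than 5 cells held it, with 25 of 59. The ratio in young members was 66.1 (27.9 to 205.5), from 5 and 218 UMIs. *Fst*, whose product follistatin binds activin, was at 3.93, 299.6, 17.5 and 19.0 CPM, and 107 of its 201 UMIs in the young ventilated library came from 1 cell. Of 20 measured genes of the TGF-β, activin and BMP pathway, 3 rose and 4 fell in young members, and none of 19 passed in aged members, a difference that was not tested. The BMP receptor *Bmpr2* rose from 186.9 to 594.7 CPM in young members, and the ligand *Tgfb2* fell from 639.3 to 199.7 CPM. In aged members, *Bmpr2* was at 361.4 and 344.7 CPM and *Tgfb2* at 247.6 and 149.9 CPM. *Igfbp5*, a binding protein of insulin-like growth factors, went from 724.9 to 89.4 CPM in young members, an 8.11-fold fall (6.23 to 10.7). In aged members, *Igfbp5* went from 555.2 to 96.5 CPM, a 5.75-fold fall (4.35 to 7.74). *Angptl4*, an inhibitor of lipoprotein lipase, rose at both ages, from 17.7 to 89.4 CPM and from 18.8 to 217.1 CPM.

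Of 12 measured cytokine and chemokine genes, 7 rose and none fell in young members, and of 13 in aged members, 3 rose and 2 fell. Their median log2 ratio was 1.17 in the young and 0.0191 in the aged, and both moved with the choice of cells, to between 0.619 and 1.73 in the young and between -2.25 and 0.932 in the aged. *Ccl2*, which draws monocytes, was at 2.95, 336.8, 1.25 and 208.5 CPM. It was found in 1 cell of each nonventilated library, in 13 of the young ventilated cells and in 7 of the aged ventilated cells. With 3 and 1 UMIs without ventilation, the ratios of 114.1 (38.6 to 557.6) and 166.8 (29.4 to 6640) are poorly bounded. Single cells held 77 of the 226 UMIs in the young and 50 of the 121 in the aged ventilated library. *Cxcl1*, which draws neutrophils, was at 59.0, 496.3, 126.3 and 127.5 CPM, an 8.41-fold rise (6.37 to 11.3) in young members. The interval of the ratio in aged members was 0.738 to 1.38, and 40 of the 101 UMIs in the aged nonventilated library came from 1 cell. That aged value depended on the cells taken, with a log2 ratio of -2.75 without members holding 3 alveolar fibroblast genes and -5.22 in cells with none of *Hhip*, *Aspn* and *Lgr6*. *Cxcl10*, which draws T cells, stood at 36.4, 363.7, 187.6 and 3.45 CPM. It rose 9.99-fold (7.05 to 14.5) in young members and fell 54.4-fold (14.8 to 453.5) in aged members, where 2 UMIs were left after ventilation. In the young ventilated library, 99 of its 244 UMIs came from 1 cell and 184 from 3 cells, and without the first of these the rise was 6.04-fold. In the aged nonventilated library, 43 of its 150 UMIs came from 1 cell and 108 from 3 cells. *Nfkbia*, which encodes the NF-κB inhibitor IκBα, rose from 333.4 to 931.5 CPM in young members and was at 448.9 and 358.5 CPM in aged members. These chemokines were detected in leukocytes too. After thinning, *Cxcl1* was detected in 2.54%, 6.86%, 4.51% and 6.52% of leukocytes in the 4 libraries. It was detected in 9.21%, 44.1%, 14.3% and 11.8% of members (19.5%, 57.6%, 24.1% and 16.2% before thinning). *Ccl2* was detected in 10.2%, 10.7%, 5.24% and 11.1% of leukocytes and in 1.32%, 20.3%, 0% and 11.8% of members after thinning (1.3%, 22.0%, 1.72% and 18.9% of members before). The share in aged ventilated members, 4 of 34 after thinning, was close to that in leukocytes. Of the 121 *Ccl2* UMIs in these members, 110 came from 3 cells. Free transcripts were not measured and the source of these UMIs was not tested, so detection in so few cells is not read as expression by them. For *Cxcl10* in the young ventilated library, members were at 13.6% and leukocytes at 17.0%, or 23.7% and 28.9% before thinning.

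**Figure D3:**
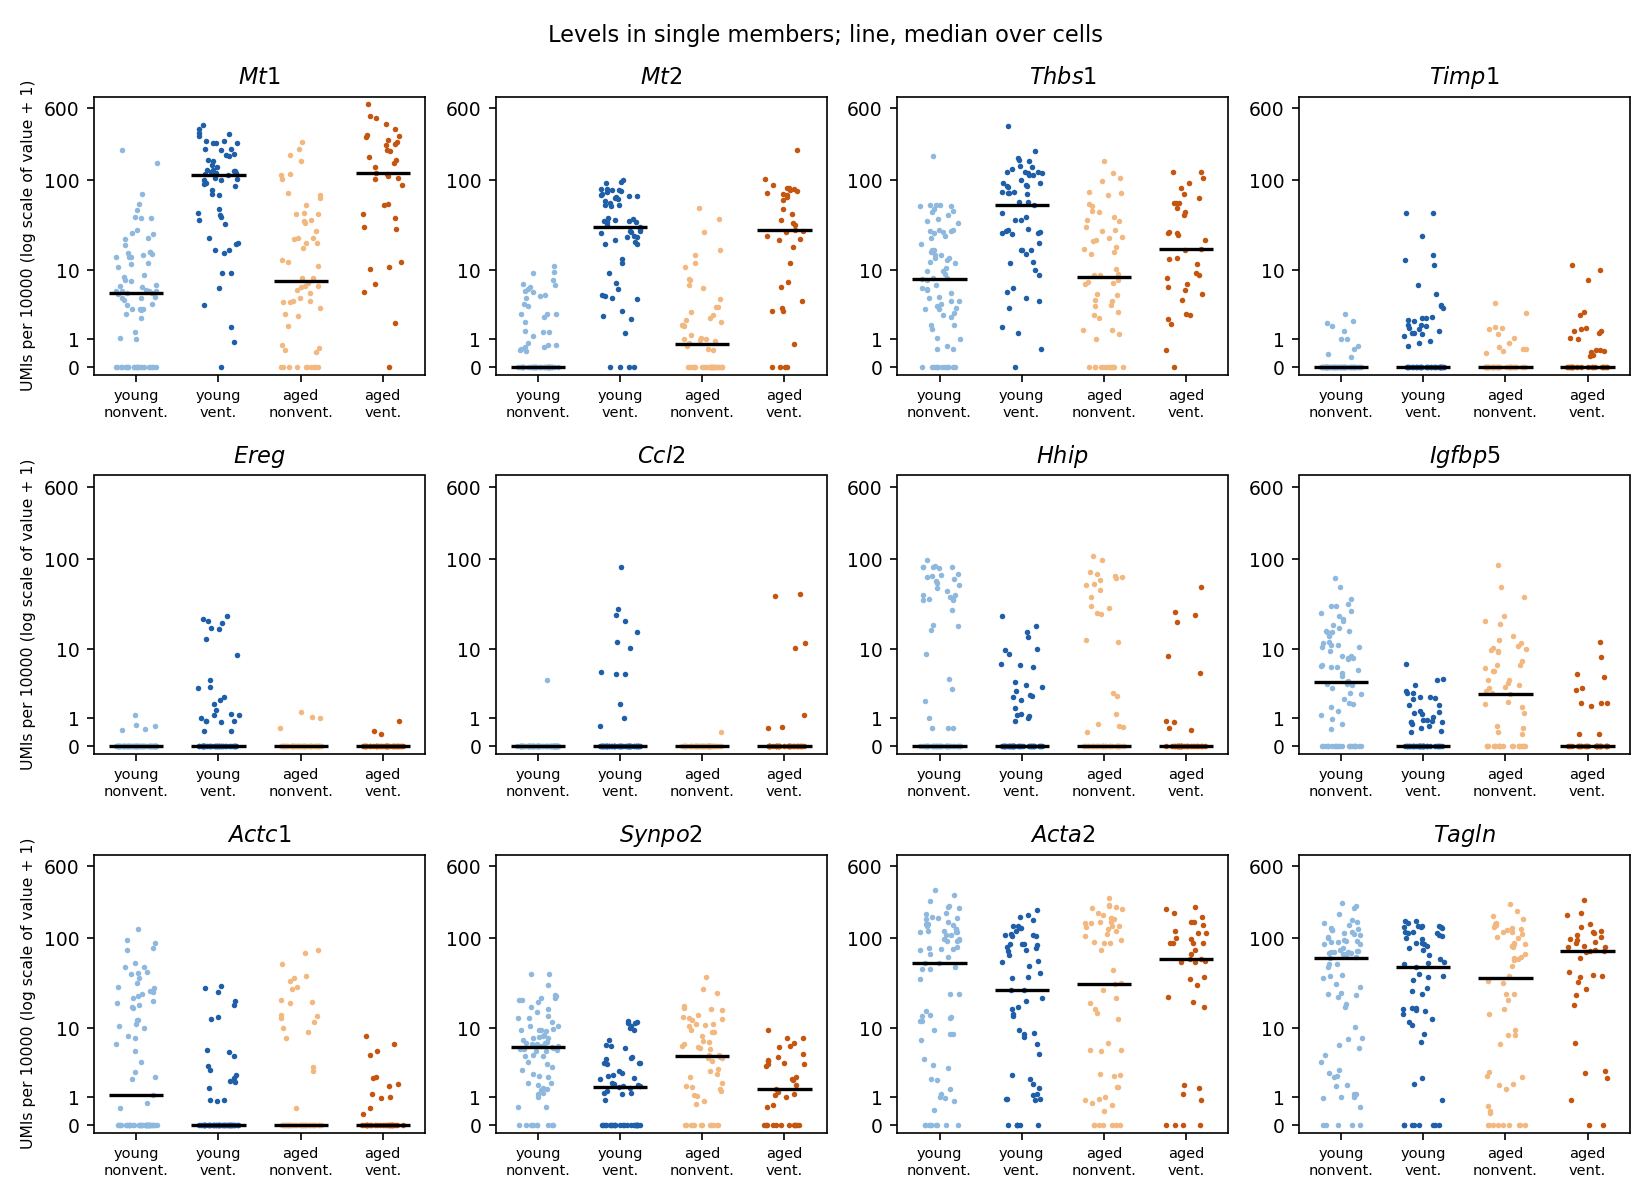
Each point is a member, and the y axis gives the UMIs of the gene per 10000 UMIs of that cell, on a log scale of the value + 1. The black line is the median over the cells of a library. The median of Mt1 was 5.22 and 114.7 in the young nonventilated and ventilated libraries and 7.49 and 120.2 in the aged ones. Among young ventilated members, 42.4% held Ereg and 22.0% held Ccl2.

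Most genes of the contractile apparatus did not pass the limit. Of 26 measured genes, none rose and 6 fell in young members, and none rose and 4 fell in aged members. The list's median log2 ratio was -0.357 and -0.282, beside 0.0768 and 0.0179 over all genes. It was -0.79 and -0.527 in young and aged cells with at least 2 of *Hhip*, *Aspn* and *Lgr6*. With the rule applied after thinning, the aged value was -0.123. *Acta2* was at 8454, 6245, 7871 and 7116 CPM, and *Tagln* was at 6484, 6847, 5721 and 6935 CPM. The log2 ratio with ventilation was -0.44 and -0.15 for *Acta2* and 0.08 and 0.28 for *Tagln* in young and aged members. *Synpo2*, an actin-binding protein of the Z-disc and dense bodies, fell from 960.0 to 281.7 CPM in young members (3.41-fold, 2.91 to 4.0). It fell from 720.3 to 251.6 CPM in aged members (2.86-fold, 2.38 to 3.46). *Actc1* stood at 1773, 360.7, 871.6 and 115.5 CPM. It fell 4.92-fold (4.30 to 5.65) in young and 7.55-fold (5.87 to 9.85) in aged members, and it was lower in aged than in young members with and without ventilation. *Pdlim3* and *Ldb3*, which join α-actinin to other proteins of the same structures, fell at both ages as well. *Pdlim3* went from 234.1 to 58.1 CPM in the young and from 216.3 to 79.3 CPM in the aged, though its log2 ratio was 1.14 in aged cells with none of *Hhip*, *Aspn* and *Lgr6*. *Ppp1r12b*, a subunit of myosin phosphatase, fell in young members from 328.5 to 114.8 CPM. In aged members it was at 300.1 and 182.7 CPM, short of 2-fold, with an interval (1.3 to 2.09) that also left out 1.

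Of 10 measured receptors and second messenger enzymes that set muscle tone, 4 fell, 1 rose and 5 did not pass in young members, and 3 fell and 7 did not pass in aged members. *Ednrb*, the endothelin receptor type B, fell from 145.6 to 47.7 CPM and from 123.8 to 34.5 CPM. The other endothelin receptor, *Ednra*, rose in young members from 112.1 to 265.3 CPM and was at 165.1 and 218.9 CPM in aged members. *Gucy1a1*, a subunit of the nitric oxide sensor guanylate cyclase, fell at both ages, from 220.3 to 102.8 CPM and from 230.1 to 100.0 CPM. *Pde4d*, which breaks down cyclic AMP, fell 2.49-fold (2.08 to 3.01) and 2.56-fold (2.05 to 3.21). The calcium release channel *Ryr2* was at 110.2 and 28.3 CPM in young and 152.6 and 67.2 CPM in aged members, and fell at both ages. *Lmcd1*, a LIM-domain cofactor of muscle genes, was among the 6 largest rises in aged members, from 128.8 to 727.3 CPM (5.65-fold, 4.54 to 7.07), and rose in young members from 162.3 to 1051 CPM (6.47-fold, 5.46 to 7.72).

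*Hhip*, *Ptch1* and *Boc* are part of the hedgehog pathway, of which few genes could be counted. *Hhip* (chr8:79965851-80058006, GRCm38, minus strand) stood at 1521, 232.5, 1222 and 299.9 CPM, so that both ventilated libraries were below both nonventilated ones. The fold was 6.54 (5.54 to 7.76) in young and 4.07 (3.46 to 4.82) in aged members. Because *Hhip* helped to choose the cells, it was also measured in cells chosen by at least 2 of *Myh11*, *Cnn1*, *Des* and *Actg2*, with *Hhip*, *Aspn* and *Lgr6* not used. The log2 ratio there was -2.46 in young and -2.38 in aged cells, against -2.70 and -2.02 among the members. *Gas1*, a hedgehog coreceptor, was at 96.4, 1.49, 70.0 and 6.89 CPM, from 98, 1, 56 and 4 UMIs. With means under 50 CPM it was not counted, and its folds were 64.7 (11.3 to 2580) and 10.2 (3.75 to 38.6). Of 12 genes on the hedgehog list, which does not hold *Hhip*, 2 in young and 1 in aged members were abundant enough to count. The receptor *Ptch1* fell in young members, from 87.5 to 40.2 CPM, but its log2 ratio was 0.90 in young cells with none of *Hhip*, *Aspn* and *Lgr6*, and -0.62 without members holding alveolar fibroblast genes. The coreceptor *Boc* fell in aged members, from 87.5 to 39.6 CPM.

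*Cdh4*, which the rule did not use, fell from 525.2 to 73.0 CPM in young members (7.19-fold, 5.36 to 9.85). It fell from 257.6 to 62.0 CPM in aged members (4.15-fold, 2.90 to 6.09). *Lgr5*, an R-spondin receptor of the Wnt pathway, was at 98.4 and 7.45 CPM in young and 81.3 and 25.8 CPM in aged members. It fell at both ages, from 100 to 5 and from 65 to 15 UMIs, 38 of the 100 being in 1 cell. *Lgr5* was not found in members with none of *Hhip*, *Aspn* and *Lgr6*, and *Cdh4* in those cells changed by 0.32 on the log2 scale in young members. Within cells that held at least 2 of the 3 genes, the log2 ratio of *Cdh4* was -2.88 in young and -1.73 in aged members, and that of *Lgr5* was -3.04 and -0.90, the latter short of the limit. The cells were chosen for these 3 genes, so no value of *Hhip* is given within them.

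Among the largest falls with ventilation in young members were also *Adamts17*, a metalloproteinase, and *Cyp2e1*, a cytochrome that oxidizes small molecules. *Adamts17* was at 215.4, 7.45, 196.3 and 25.8 CPM. *Cyp2e1* was at 160.3, 5.96, 188.8 and 10.3 CPM, and 4 and 6 UMIs were left in the ventilated libraries. Both were low in both ventilated libraries. *Rad51b*, a DNA repair gene, and *Abca8a*, a transporter, made up the rest of the falls named by size in young members, with *Lgr5* and *Inmt*. *Inmt* fell from 347.2 to 31.3 CPM. Members holding 3 or more of 6 alveolar fibroblast genes, of which *Inmt* is one, numbered 16 and 1 in the young nonventilated and ventilated libraries. In the 16, the median of *Inmt* was 0.6 UMIs per 10000. Without such members the log2 ratio of *Inmt* was -0.16, but they were chosen in part by *Inmt*, so this value decides nothing. In cells chosen by 2 of 4 smooth muscle markers the log2 ratio of *Inmt* was 0.70. *Sphk1*, which makes sphingosine 1-phosphate, was the other rise of the same size class, from 3.93 to 117.7 CPM in the young and, under the CPM limit, from 3.75 to 89.6 CPM in the aged.

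The largest rises in aged members also took in *Serpina3n*, a serine protease inhibitor, and *Cers6*, a ceramide synthase. *Serpina3n* was at 19.7, 113.3, 92.5 and 513.6 CPM, and *Cers6* was at 8.85, 52.2, 37.5 and 208.5 CPM. For both genes, each ventilated library was above the nonventilated library of its age, although 106 of 298 UMIs of *Serpina3n* and 65 of 121 of *Cers6* in the aged ventilated library came from 1 cell each. Beside *Cxcl10*, *Cyp2e1* and *Hspa1b*, the largest falls in aged members were *Kirrel3*, an adhesion protein, *Ptprt* and the potassium channel *Kcnq5*. *Kirrel3* went from 198.8 to 13.8 CPM, with 78 of its 159 UMIs before ventilation in 1 cell, *Ptprt* from 118.8 to 10.3 CPM and *Kcnq5* from 115.1 to 10.3 CPM in aged members.

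Among heat shock genes, *Hspa1a* and *Hspa1b* were highest in young nonventilated members. *Hspa1a*, an inducible chaperone of the HSP70 family, was at 1701, 195.2, 525.2 and 163.7 CPM. It fell 8.71-fold (7.29 to 10.5) in young and 3.21-fold (2.56 to 4.05) in aged members. *Hspa1b*, a near-identical copy whose reads can be hard to tell from those of *Hspa1a*, followed the same order, at 959.0, 126.7, 275.1 and 25.8 CPM. Among 13 heat shock genes, 4 fell in young members, and 3 fell and 1 rose in aged members. The one that rose was *Hspb1*, a small chaperone of actin filaments, from 1508 to 4153 CPM. Of 23 immediate early genes, 3 rose and 5 fell in young members and 1 rose and 2 fell in aged members. The shares of all genes were 9.26% and 8.19% in young and 4.43% and 6.94% in aged members, and the aged counts were near them. *Jun*, a subunit of AP-1, fell in young members from 2332 to 675.1 CPM, and was at 1965 and 1541 CPM in aged members. *Atf3* fell at both ages, from 1612 to 630.4 CPM and from 1439 to 679.0 CPM. *Ier3*, an early gene that protects against cell death, rose from 355.1 to 1477 CPM in young members and was at 400.2 and 675.6 CPM in aged members.

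*Fkbp5*, a cochaperone induced by glucocorticoids, rose at both ages, from 73.8 to 217.6 CPM (2.95-fold, 2.22 to 3.95) and from 76.3 to 391.2 CPM (5.13-fold, 3.85 to 6.92). The circadian output genes *Dbp*, *Hlf* and *Tef*, which encode related transcription factors, fell together at both ages. *Dbp* went from 212.5 to 32.8 CPM and from 161.3 to 77.6 CPM, and *Hlf* went from 196.7 to 46.2 CPM and from 145.1 to 48.2 CPM. The hour of tissue collection was not given for the libraries, so it was not tested. In the list of 13 measured glucocorticoid and clock genes, 2 rose and 4 fell in young members and 2 rose and 3 fell in aged members.

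**Figure D4:**
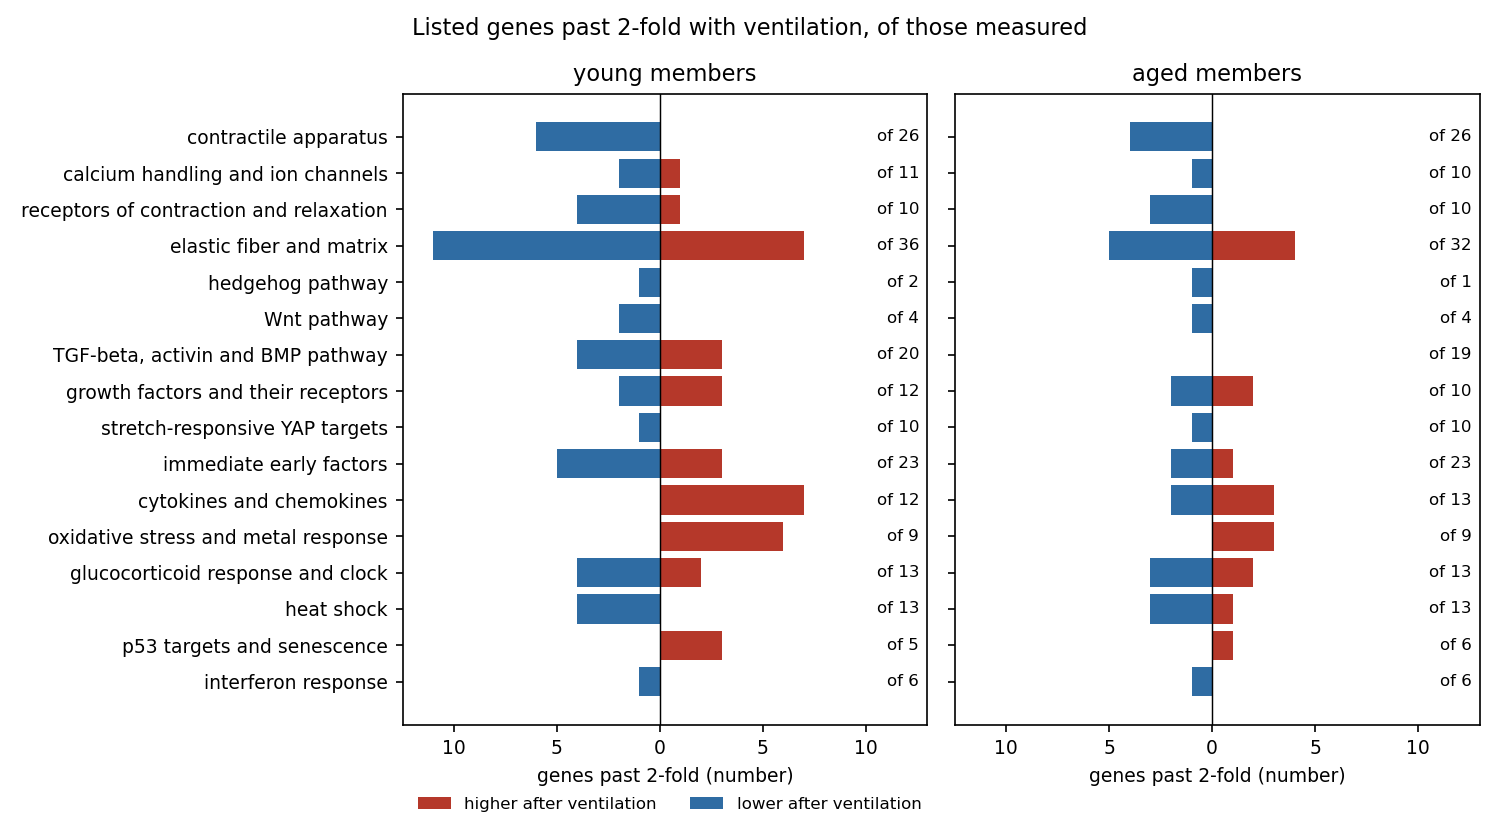
Bars give the number of listed genes past 2-fold with ventilation, to the right for higher and to the left for lower, with the number measured beside each. Left, young members; right, aged members. Cytokine and chemokine genes passed in 7 of 12 cases in young members, all higher, and in 5 of 13 in aged members, of which 3 were higher.

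Other lists had few genes past the limit or few that were measured. Over all genes, 9.26% rose and 8.19% fell in young members, and 4.43% rose and 6.94% fell in aged members. The YAP counts that follow were near these shares. Of 10 measured targets of the stretch-responsive factor YAP, 1 fell at each age, *Ankrd1* in young and *Ccn1* in aged members, and 90 of the 206 UMIs of *Ankrd1* in young nonventilated members came from 1 cell. Of 6 measured interferon response genes, only *Irf1* passed, and it was lower at both ages. Among p53 targets and senescence genes, 3 of 5 rose in young members and 1 of 6 in aged members. In the integrated stress response, *Vldlr* alone fell, among 6 genes in young members, and none of 5 passed in aged members. Only 1 cell cycle gene was abundant enough to count at either age, and it did not pass.

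The same ratios were set beside those of 287 pericytes, 1771 alveolar fibroblasts and all 11615 other retained barcodes, chosen from the same libraries by fixed marker rules. The last of these groups holds every retained barcode that was not a member, pericytes and alveolar fibroblasts included, so the groups overlap. These are values side by side, with no test. *Mt1* was higher after ventilation in every group, with log2 ratios of 3.45 in young members, 2.96 in pericytes, 3.66 in alveolar fibroblasts and 3.36 in all others. In aged mice they were 2.99, 1.36, 3.21 and 2.71. *Hspa1a* had a log2 ratio of -3.11 in young members, against 1.03 in pericytes, -0.10 in alveolar fibroblasts and -0.37 in all others. Its level in young nonventilated members, 1701 CPM, compares with 108.7, 102.2 and 74.7 CPM in those groups, the highest of these values being that of the members. *Tgfb2* had a log2 ratio of -1.67 in young members, -1.75 in pericytes and 0.87 in alveolar fibroblasts. *Bmpr2* was 1.67 in young members, 1.42 in alveolar fibroblasts, 0.54 in pericytes and -0.34 in all others. *Fkbp5* was 1.55 in young members and 0.24 to 0.60 in the other 3 groups, whereas in aged mice it was 2.34 in members and 1.09 to 2.13 in the others. In young nonventilated mice, *Actc1* was at 1773 CPM in members, at 0.278 CPM in alveolar fibroblasts, at 0 UMIs in pericytes and at 20.7 CPM in all others.

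**Figure D5:**
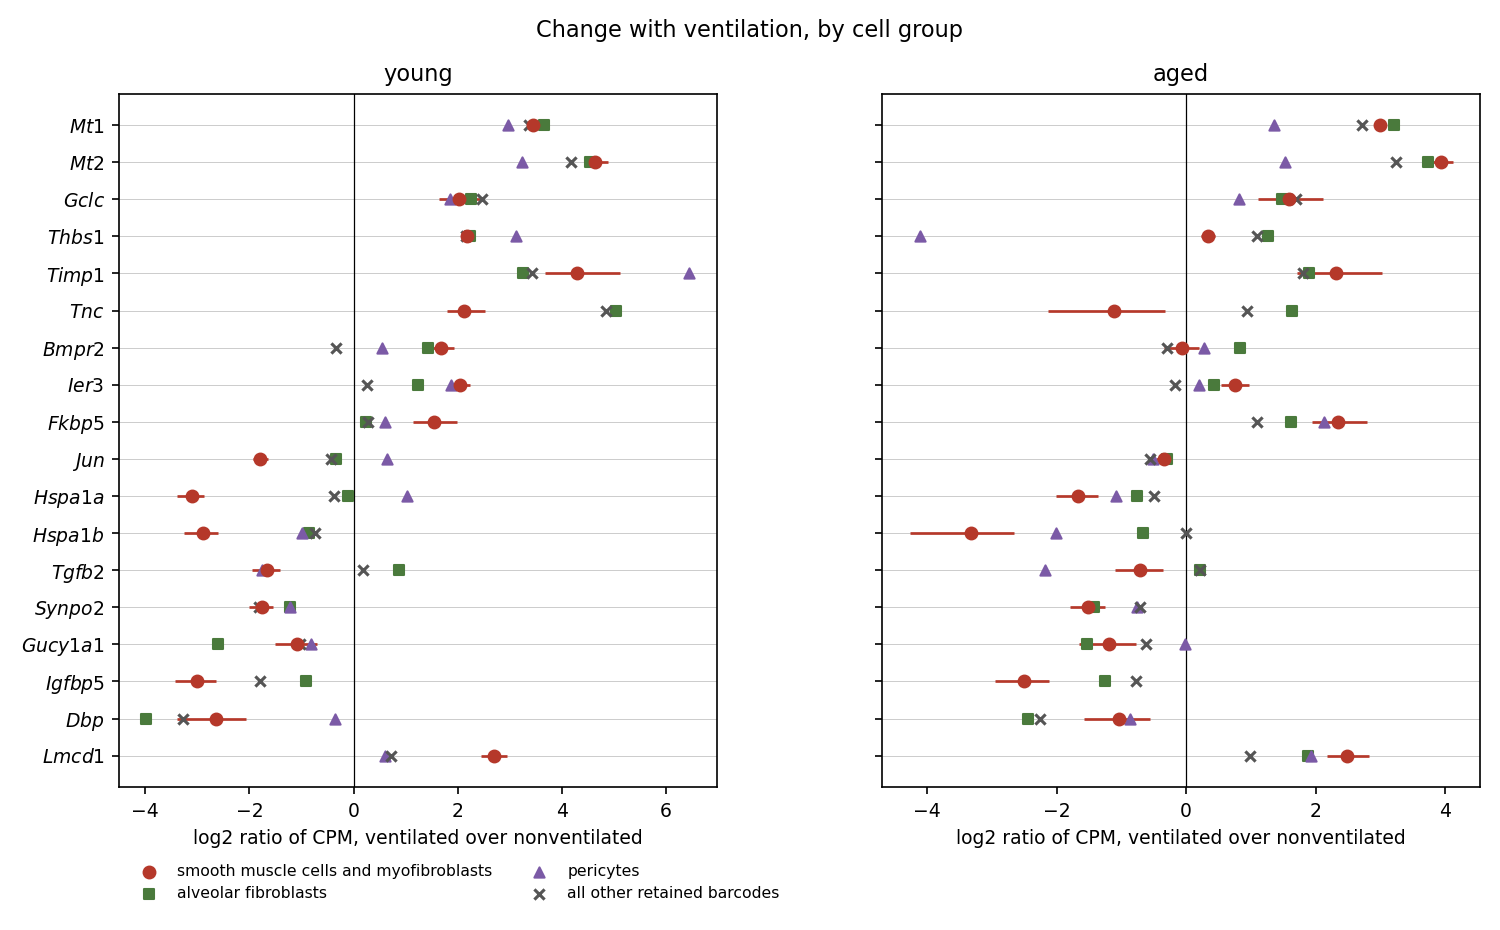
The x axis gives the log2 ratio of CPM, ventilated over nonventilated, for 18 genes in young (left) and aged mice (right). Red circles with 95% counting intervals are smooth muscle cells and myofibroblasts, green squares alveolar fibroblasts, purple triangles pericytes and gray crosses all other retained barcodes. Groups with under 20 UMIs in both libraries are not drawn. Mt1 and Mt2 lie to the right in all groups, and Hspa1a lies farthest to the left in the members at both ages (-3.11 and -1.67).

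Age was compared at rest and after ventilation. Without ventilation, 80 of 3492 genes were higher in aged than in young members (2.29%) and 36 were lower (1.03%). These counts moved with the choice of cells, to 128 and 77 at 5% mitochondrial UMIs and to 136 and 63 in cells chosen by 2 of 4 smooth muscle markers. After ventilation, 146 of 3512 were higher (4.16%) and 178 were lower (5.07%). The higher ones were 247 at 5% mitochondrial UMIs and 84 with the rule read after thinning, and in cells with at least 2 of *Hhip*, *Aspn* and *Lgr6* 352 were higher and 334 lower. The median size of the log2 ratio was 0.223 and 0.364. These comparisons use the same libraries as those above and are not independent of them.

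At rest, both metallothioneins were higher in aged members, *Mt1* by 2.14-fold (1.99 to 2.29) and *Mt2* by 2.22-fold (1.82 to 2.71). *Hspa1a* and *Hspa1b* were lower, 3.24-fold (2.91 to 3.61) and 3.49-fold (3.01 to 4.05). Other genes lower in aged members included *Bambi*, a decoy receptor that dampens TGF-β and BMP signals, at 143.6 and 35.0 CPM in young and aged members. *Hbegf*, a ligand of the epidermal growth factor receptor, was at 122.0 and 30.0 CPM, and 51 of its 124 UMIs in young members came from 1 cell. *Chrm2*, the muscarinic receptor M2, was at 126.9 and 32.5 CPM, and 48 of its 129 UMIs in young members came from 1 cell. *Tnnt2*, a troponin, *Grin2a*, a glutamate receptor subunit, and *Pnmt*, the enzyme that makes adrenaline, were the other named falls. In cells with none of *Hhip*, *Aspn* and *Lgr6*, the log2 ratio was 0.21 for *Chrm2* and 1.89 for *Pnmt*.

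Several of the genes higher in aged members at rest are chemokines. *Cxcl14* was at 61.0 and 491.5 CPM and *Cxcl10* at 36.4 and 187.6 CPM, in 4 and 10 and in 6 and 13 cells. Single cells held 140 of the 393 UMIs of *Cxcl14* in aged members. For *Cxcl10*, single cells held 16 of the 37 UMIs in young and 43 of the 150 in aged members. Alveolar fibroblast genes differed in this comparison as well, with a list sum of 1347 CPM in young and 3020 CPM in aged members, a median log2 ratio of 0.899 and *Tcf21* and *Inmt* higher among 6 measured. The members with 3 or more of these genes, with their *Acta2* as given above, were 16 in the young and 12 in the aged library. Without them, 65 genes were higher and 50 lower in aged members, and the log2 ratio of *Cxcl10* was 2.14, against 2.34 with them. Among cells with at least 4 of the 7 markers, the log2 ratio of *Cxcl14* was -2.78, against 2.99 among all members. Of 11 measured cytokine and chemokine genes, 5 were higher and none lower, with a median log2 ratio of 0.446 beside 0.0143 over all genes. *Il6* was one of them, at 40.3 and 155.1 CPM, and 57 of its 124 UMIs in aged members came from 1 cell. *Ptprt*, a receptor phosphatase, *Pcdh11x*, a protocadherin, *Adamts4*, an aggrecanase, and *Hsd11b1*, which activates glucocorticoids, were the other named rises, found in 10 to 13 aged cells each. For *Hsd11b1*, the log2 ratio was -1.57 among cells with at least 4 markers, against 2.33 among all members.

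After ventilation, the genes higher in aged members included *Mfap4*, *Ppp1r3a*, *Tcf21* and *Spon1*. *Mfap4*, a microfibril-associated glycoprotein, was at 49.2 and 692.8 CPM in young and aged ventilated members, and 198 of its 402 UMIs in the aged ones came from 1 cell. *Tcf21*, a transcription factor of alveolar fibroblasts, was at 16.4 and 129.3 CPM. *Inmt*, which methylates amines in alveolar fibroblasts, was at 31.3 and 544.6 CPM. Members with 3 or more alveolar fibroblast genes made up 1 of 59 cells in the young ventilated and 7 of 37 in the aged ventilated library. Without such members, the log2 ratio fell from 3.78 to 1.19 for *Mfap4* and from 2.87 to 2.07 for *Tcf21*.

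Lower in aged than in young ventilated members were several genes that had risen with ventilation in the young. *Cxcl10* was at 363.7 and 3.45 CPM, *Ereg* at 324.9 and 5.17 CPM, *Fst* at 299.6 and 19.0 CPM and *Tnc* at 374.1 and 25.8 CPM. *Ereg* was held by 25 of 59 young and 3 of 37 aged ventilated cells, and *Tnc* by 29 and 5. The other 2 named by size, *Depdc5* and *Kcnq5*, rested on a single young cell for 218 of 323 and 136 of 189 UMIs. Of 34 measured matrix genes, 7 were lower and 3 higher in aged ventilated members, *Thbs1* (2.58-fold) and *Timp1* (2.32-fold) being among the lower ones. The metallothioneins did not follow this order, as *Mt1* was 1.55 times as high in aged as in young ventilated members (1.51 to 1.59).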

How the data were processed

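Left lung lobes were digested and the cells frozen, and after thawing the cells of 3 mice per group were pooled and run as a 10x 3′ library. The authors deposited UMI counts per gene and barcode, made with Cell Ranger 7.0.0 on mm10 according to the submitters' processing notes. The 4 libraries held 3400 to 4497 barcodes and 40655452 to 45218176 UMIs in total. Barcodes with 200 to 7500 genes and at most 10% mitochondrial UMIs were retained. The study's own limit was 5000 genes, which 15 members exceeded. No doublet caller was run, and doublets were limited by the gene maximum and by the absence of *Ptprc* and *Cdh5*.

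Members' UMIs were summed per library and divided by their total, giving CPM. Log2 ratios had 1 UMI added to each sum. Intervals were exact (Poisson, Clopper-Pearson, or conditional binomial for ratios), and a sum of 0 was set to a floor of 3 counts per library for a bound. With 1 library per group, the counts allowed no test between conditions and no p-value is given. The script was tested on simulated counts.

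Members and gene lists were chosen with earlier results of these data known. Named genes were the 6 largest rises and falls of each comparison, held by at least 10 cells of the higher library and still past 2-fold without the cell with most UMIs, together with listed genes. Unnamed gene models and mitochondrial genes were passed over, and 2 genes that the rule picked are not reported here. Of 448 listed genes, 445 had 1 row in the files and were used. Gene positions came from GENCODE and promoters from RefSeq. Alternatives changed the limits, rule, scaling and added count. Analyses used Python 3.11.15, numpy 2.4.6, scipy 1.17.1, pandas 2.3.3 and matplotlib 3.10.9.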

Additional observations from a re-analysis of the deposited data

Results flagged for a closer look

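Of the genes on the lists, 4 are given here because they passed the 2-fold limit in opposite directions with ventilation in young and aged members. Over all genes measured at both ages, listed or not, 5 rose in young and fell in aged members, and 1 did the reverse. The difference between the ages was not tested, as each group had 1 library. *Cxcl10* had a log2 ratio of 3.29 in young and -5.19 in aged members, from 37 and 244 UMIs and from 150 and 2 UMIs. *Adamts4* had 2.05 in young and -1.30 in aged members, and the troponin *Tnnt2* had -1.76 and 1.93. *Scgb1a1*, the secretory protein of airway club cells, had 1.12 and -1.13, with 63, 91, 120 and 39 UMIs spread over 39, 39, 46 and 23 members, and 31 of the 120 in 1 cell.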

How the results depend on the processing

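Among 171 results for named genes, 2515 values were computed under other settings. Of these, 2194 (87.2%) stayed on the same side of the limit as the reported value. Another 127 fell short of the limit, 182 newly passed it and 12 changed sign. A change of sign was counted only where the reported or the new value passed the limit. Changes of sign between values short of it would be among the 2194. No paired analysis was possible because each group had 1 library. Selecting cells by 2 of 4 smooth muscle markers, with *Hhip*, *Aspn* and *Lgr6* not used, was chosen after seeing the data. So was leaving out members with 3 alveolar fibroblast genes.

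The share of members went to 1.87% in young nonventilated and 1.32% in young ventilated mice with fewer than 2 pericyte genes. Without cells holding *Epcam*, *Pecam1* or *Sftpc* the shares were 1.6%, 1.29%, 1.12% and 0.823% in the 4 libraries. With at least 4 markers they were 1.32% in young ventilated and 1.29% in aged nonventilated mice. Cells with at least 2 of *Hhip*, *Aspn* and *Lgr6* made up 31.9%, 14.6% and 24.5% in the first 3 libraries when the rule was applied after thinning, and 49.2%, 29.6%, 34.0% and 17.9% of cells chosen by 2 of 4 smooth muscle markers.

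Genes past 2-fold with ventilation in young members were 544 higher and 477 lower in cells with at least 2 of the 3 genes, 108 lower in cells with none, 611 and 648 at a mean of 20 CPM, and 631 and 923 with no limit. In aged members they were 260 higher in cells with at least 2, 317 and 520 at 20 CPM, and 318 and 632 with no limit. Higher in aged than young members at rest were 128 at 5% mitochondrial UMIs, 136 in cells chosen by 2 of 4 markers, 121 in cells with none, 220 at 20 CPM and 274 with no limit. Lower there were 77, 63, 57, 107 and 175 under the same settings, 56 with fewer than 2 pericyte genes and 66 without *Epcam*, *Pecam1* or *Sftpc*. After ventilation, 247 were higher in aged members at 5% mitochondrial UMIs, 84 with the rule applied after thinning, 352 in cells with at least 2, 363 at 20 CPM and 367 with no limit. Lower there were 334 in cells with at least 2, 269 in cells with none, 389 at 20 CPM and 407 with no limit.

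The median log2 ratio of contractile genes was -0.79 in young and -0.527 in aged cells with at least 2, and that of matrix genes was 0.512 in young cells with none. For cytokines in young members it was 0.619 at 5% mitochondrial UMIs and 1.73 in cells with none. For cytokines in aged members it was 0.932 at 5000 genes, 0.513 with 4 markers, 0.816 after thinning, 0.679 by 2 of 4 markers, 0.787 without members holding alveolar fibroblast genes and -2.25 in cells with none. The oxidative and metal list in aged members was 0.393 with 4 markers and 1.95 in cells with none.

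The 12 log2 ratios counted as changed in sign were these, and the cause was not tested. *Inmt* was 0.70 in young members by 2 of 4 markers. At rest, *Cxcl14* was -2.78 and *Hsd11b1* -1.57 in aged over young cells with 4 markers. In cells with none of the 3 genes, *Pnmt* was 1.89 and *Chrm2* 0.21 in aged over young at rest. With ventilation, *Thbs1* was -1.22, *Cxcl1* -5.22 and *Pdlim3* 1.14 in aged cells with none, and *Ptch1* 0.90 and *Cdh4* 0.32 in young ones. *Col8a1* was -1.77 in young cells with at least 2, and *Cxcl1* was -2.75 in aged members without those holding alveolar fibroblast genes.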

Other observations

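A230057D06Rik (chr7:61704519-61928690, GRCm38) lay outside the rule for named genes and was chosen after its values were seen. It had 177 UMIs in 13 young nonventilated members, 102 UMIs in 10 aged nonventilated members, and 0 in both ventilated libraries. At a floor of 3 counts per library, it was at least 38.9-fold lower in young and at least 24.7-fold lower in aged ventilated members. Of its UMIs, 66 and 37 came from 1 cell each. *Saa3*, an acute phase protein, was also chosen after its values were seen, and its level shows what a single cell can do to a sum. It had 2, 44, 1 and 583 UMIs in the 4 libraries, and 578 of the 583 in aged ventilated members came from 1 cell.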
